A study of Mus musculus with 6 samples.

Results

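Premyelinating oligodendrocytes are the short-lived stage between the oligodendrocyte precursor cell (OPC) and the myelinating cell. Cells at this stage leave the cell cycle, grow a dense arbour of processes and begin to make the lipids and adhesion proteins that a myelin sheath needs, and many of them die if they do not reach an axon. The 9 genes described here mark committed precursors and newly formed oligodendrocytes: Bcas1, Enpp6, Itpr2, Fyn, Tmem163, Sirt2, Nfasc, Ugt8a and Fa2h. They were taken by gene symbol from the table of 18211 genes that the authors deposited. All 9 were found, and all 9 were among the 13792 genes tested, those with an RPKM (reads per kilobase of transcript, scaled to the size of the library) of at least 0.5 in at least 3 of 6 libraries. The filter did not use the difference between genotypes, but the genes were chosen with earlier results of these data known.

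The libraries came from brain cells of C57BL/6 mice at postnatal day 7, bound to an antibody against PDGFRα (immunopanning) and sequenced without culture. The DISC1-Δ3 group (3 libraries) was NG2-CreERTM:DISC1 exon3 fl/+, in which the promoter of Cspg4, the NG2 gene, drives a tamoxifen-dependent Cre that removes exon 3 from 1 of the Disc1 alleles. The wildtype group (3 libraries) carried no CreERT, and both groups received tamoxifen by gavage on postnatal days 4 to 7, so that the deletion and the presence of CreERT cannot be told apart. The NG2 promoter is also active in pericytes, and the sources used here do not say whether a library was 1 animal or a pool, so p-values measure the spread between these libraries.

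Totals were 13716619 to 16417219 reads in wildtype and 14229954 to 16138674 in DISC1-Δ3 libraries. DISC1-Δ3 replicate 3 stood apart from its group (chi-square per degree of freedom of 5.39 and 4.99 in its pairs, against 2.59 for the remaining pair). Its omission is given below for the counts that lead the results. Disc1, the targeted gene, had a mean RPKM of 3.55 in wildtype and 2.72 in DISC1-Δ3 libraries (log2 fold change -0.45, SE, the standard error, 0.088), per gene and without resolving exon 3. The labelled cell type was checked against marker lists. All 9 OPC (precursor) markers were detected, with summed RPKM of 492 to 512 in wildtype and 616 to 639 in DISC1-Δ3 libraries. The summed RPKM of 10 microglia markers was far higher, at 12300 to 12600 and 8680 to 9020. The 8 astrocyte markers summed to 1840 to 1880 in wildtype and 1770 to 1790 in DISC1-Δ3 libraries, also above the OPC markers. The libraries therefore hold much RNA of microglia and astrocytes beside that of the labelled cells. In such bulk RNA, fewer cells of a type and less RNA per cell cannot be told apart.

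Promoters of the genes with the largest falls, and of Fyn, which did not pass the test, are shown because these genes were measured side by side in the same libraries. RefSeq promoters (GRCm38.p6, which is mm10) were matched for 7 of the 9 genes, with 8 start sites. Each runs 5′ to 3′ on the gene's strand from 250 bases before the start site to 50 bases from it. Capitals mark matches on either strand to CTTTGA (TCF/LEF core), ACAAAG or ACAATG (SOX cores) and CANNTG (E-box), motifs chosen with the values known. The reverse complement of ACAAAG and CTTTGA share their first 5 letters.
Enpp6, chr8:46986637-46986936, + strand: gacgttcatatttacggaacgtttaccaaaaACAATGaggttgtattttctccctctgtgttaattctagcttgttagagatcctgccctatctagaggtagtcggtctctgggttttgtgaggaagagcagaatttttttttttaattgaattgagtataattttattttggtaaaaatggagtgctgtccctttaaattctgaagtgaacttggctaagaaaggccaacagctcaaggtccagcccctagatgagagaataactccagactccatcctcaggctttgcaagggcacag
Nfasc, chr1:132707277-132707576, - strand, the more upstream of the 2 start sites listed: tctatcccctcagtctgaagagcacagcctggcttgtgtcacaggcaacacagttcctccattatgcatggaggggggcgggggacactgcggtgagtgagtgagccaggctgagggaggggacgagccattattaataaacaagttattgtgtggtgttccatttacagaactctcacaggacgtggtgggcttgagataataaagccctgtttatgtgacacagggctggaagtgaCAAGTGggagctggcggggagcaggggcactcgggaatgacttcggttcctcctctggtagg
Ugt8a, chr3:125938603-125938902, - strand: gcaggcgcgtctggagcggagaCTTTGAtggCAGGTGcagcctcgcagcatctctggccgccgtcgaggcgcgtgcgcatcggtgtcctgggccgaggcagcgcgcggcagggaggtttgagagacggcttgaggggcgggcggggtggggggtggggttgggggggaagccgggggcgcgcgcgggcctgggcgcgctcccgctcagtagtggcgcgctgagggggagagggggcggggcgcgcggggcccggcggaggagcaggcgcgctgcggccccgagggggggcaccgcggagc
Fyn, chr10:39369549-39369848, + strand: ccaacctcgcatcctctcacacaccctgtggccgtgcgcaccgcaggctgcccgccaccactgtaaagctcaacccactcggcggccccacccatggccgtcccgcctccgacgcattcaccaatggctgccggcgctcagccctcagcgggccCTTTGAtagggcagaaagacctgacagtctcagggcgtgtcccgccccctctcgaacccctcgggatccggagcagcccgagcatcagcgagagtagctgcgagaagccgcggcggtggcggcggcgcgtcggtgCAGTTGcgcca
The CTTTGA core was present in 2 of the 8 promoters, those of Ugt8a and Fyn, against 16% of the 32851 promoters in the RefSeq table. ACAATG was present in 2 (Enpp6 and Sirt2), against 12.6%, and ACAAAG in 0, against 18.7%. An E-box was present in 6 of 8, against 72.3%. The promoters differed most in base composition: that of Enpp6 had 4 CG dinucleotides and a GC content of 40.3%, that of Ugt8a 40 and 78.3%, and that of Fyn 31 and 69.0%, with medians of 7 and 52.7% over all promoters. The promoters of Enpp6 and Ugt8a, both genes that fell, thus lie on either side of the median. The RefSeq gene spans of Enpp6 and Nfasc begin upstream of the windows shown.

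In GRCm38.p6, Enpp6 spans chr8:46939197-47096762, Nfasc chr1:132564690-132741848, Ugt8a chr3:125865272-125938682, Itpr2 chr6:146108299-146502258 and Fa2h chr8:111345138-111393821. Tmem163 spans chr1:127490342-127678021, Sirt2 chr7:28766752-28788665, Fyn chr10:39369743-39565381 and Bcas1 chr2:170343973-170427911. In the GENCODE annotation, Ugt8a and Fa2h overlap 0 other genes. Each of the remaining 7 overlaps a gene on the opposite strand, for example the antisense genes Bcas1os1 and Bcas1os2 at Bcas1 and the protein-coding Nfkbib at Sirt2. Strand is not stated for these counts, so reads of overlapping genes may be shared.

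Per length, the genes spanned a wide range of levels in wildtype libraries. Sirt2, which encodes an NAD-dependent deacetylase of oligodendrocyte cytoplasm and myelin, was the most abundant, with an RPKM of 408 ± 5.25 (SD, n = 3). Bcas1, a protein of early myelinating oligodendrocytes, followed at 84.9 ± 1.82, and Fyn, the Src family kinase that relays axonal contact, at 74.6 ± 2.78. Nfasc was at 44.5 ± 1.55 and Tmem163 at 21.1 ± 0.89. Fa2h (14.6 ± 0.738) and Enpp6 (14.4 ± 0.651) did not differ beyond their spread. Ugt8a (10.5 ± 0.475) and Itpr2 (9.77 ± 0.287) were close, the lowest Ugt8a value (10.14) just above the highest Itpr2 value (10.1). These levels lay between the 53.5 and 98.4 percentiles of the wildtype means of all tested genes. In DISC1-Δ3 libraries 7 of the 9 genes had the same rank, and Itpr2 and Ugt8a exchanged theirs. The number of reads behind a value ran from 325, for Enpp6 in a DISC1-Δ3 library, to 11284, for Sirt2 in a wildtype library.

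**Figure D1:**
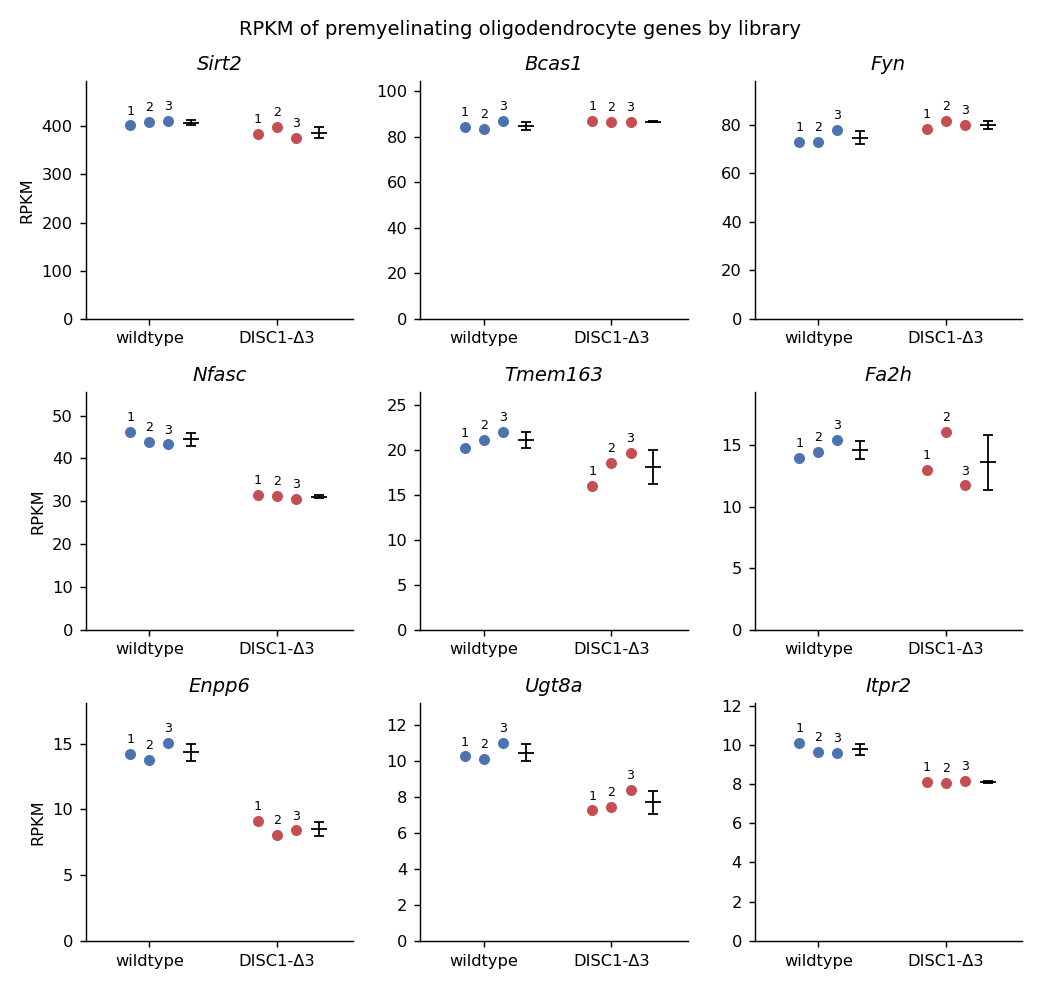
RPKM (y axis, from 0) of each gene in the 3 wildtype and 3 DISC1-Δ3 libraries, labelled by replicate number, with the mean and SD of each group beside the points. The groups separate for Enpp6, Nfasc, Ugt8a and Itpr2 with a gap, narrowly for Sirt2, Tmem163 and Fyn, and overlap for Bcas1 and Fa2h.

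The comparison of DISC1-Δ3 with wildtype libraries asked whether the RNA of this stage differed between genotypes. The test was the edgeR quasi-likelihood F test, with Benjamini-Hochberg adjustment across the tested genes. Of the 9 genes, 6 fell in DISC1-Δ3 libraries at an adjusted p under 0.05 by edgeR, against 19.5% of all tested genes that fell. These were Enpp6, Nfasc, Ugt8a, Itpr2, Tmem163 and Sirt2, in order of the size of the fall. By edgeR 0 of the 9 genes rose, against 20.4% of tested genes, and 0 were higher at an unadjusted p under 0.05. DESeq2 gave the same counts. With limma 5 were lower and 0 higher, and 1 was higher at an unadjusted p under 0.05. A called log2 fold change of -0.5 or below was found for Enpp6, Nfasc and Ugt8a, against 6.15% of tested genes. RPKM values did not overlap between genotypes for 7 of the 9 genes, against 52% of tested genes. The median log2 fold change of the 9 genes was -0.27, against 0.01 over all tested genes. The count of 6 lower genes was also found without DISC1-Δ3 replicate 3, where the median was -0.33, and the median was -0.35 without DISC1-Δ3 replicate 2. Of all tested genes 39.9% passed the threshold in either direction, and 51.1% of those were higher, or 69.1% when library totals set the scaling.

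**Figure D2:**
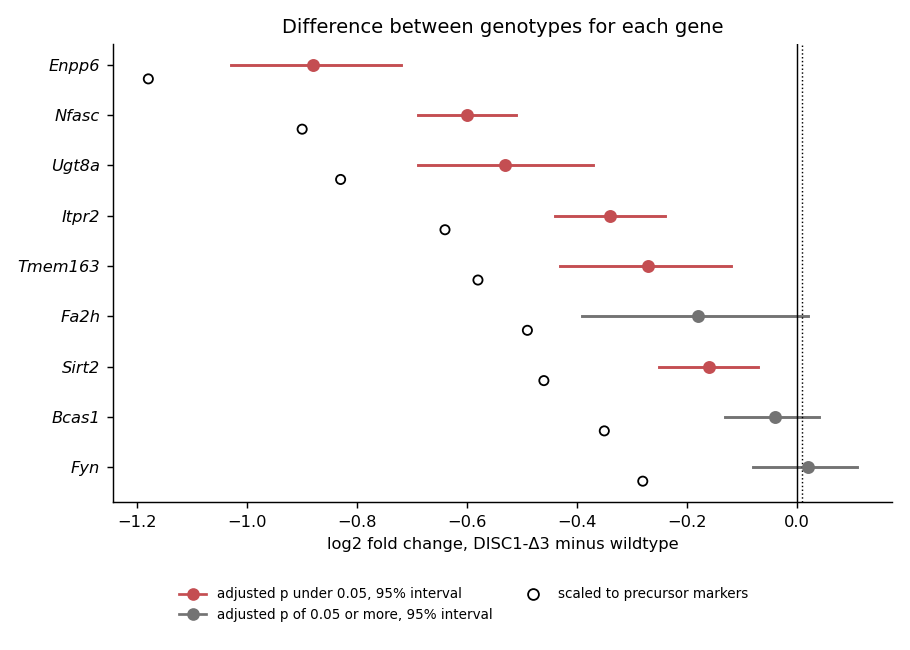
Log2 fold change of each gene (x axis, DISC1-Δ3 minus wildtype) with its 95% interval from edgeR, coloured by whether the adjusted p was under 0.05. Open circles give the value with libraries scaled to OPC markers, and the dotted line is the median of all tested genes (0.01). Enpp6 lies farthest to the left at -0.88, and Bcas1 and Fyn lie at -0.04 and 0.02.

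Enpp6 encodes a choline phosphodiesterase on the surface of newly forming oligodendrocytes, and is widely used as a marker of this stage. It measured 14.21, 13.78 and 15.06 RPKM in wildtype replicates 1 to 3, against 9.10, 8.04 and 8.40 in DISC1-Δ3 replicates. Each DISC1-Δ3 library was below each wildtype library by a wide margin. A lower level without overlap, at any margin, was found for 16.1% of all tested genes. In reads, Enpp6 had 545, 689 and 704 against 325, 375 and 415. It differed on the log2 scale by -0.88 (SE 0.074, edgeR, adjusted p = 3.61e-08), a level that fell by 45.6%. The transcript length implied by the count and the RPKM was 2.51 to 3.07 kilobases over the 6 libraries for Enpp6, a ratio of 1.22 between highest and lowest, and 1.09 at most for the other 8 genes. The RPKM of Enpp6 is therefore less exact as a measure of reads than that of the other genes, while the test rests on the reads.

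Nfasc encodes neurofascin, whose glial isoform joins the oligodendrocyte membrane to the axon beside the node of Ranvier. It measured 46.21, 43.93 and 43.25 RPKM in wildtype, against 31.42, 31.26 and 30.61 in DISC1-Δ3 replicates. The groups were far apart and the DISC1-Δ3 values lay close together. The log2 fold change was -0.60 (SE 0.042, edgeR, adjusted p = 3.05e-09), a level that fell by 33.9%, with the lowest adjusted p of the 9 genes. These counts are per gene and do not separate the glial from the neuronal isoform.

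Ugt8a and Fa2h act in the same route to the galactolipids of myelin. Ugt8a encodes the enzyme that adds galactose to ceramide, and Fa2h the enzyme that hydroxylates the fatty acid of these lipids. Ugt8a measured 10.27, 10.14 and 11.02 RPKM in wildtype replicates 1 to 3, against 7.26, 7.44 and 8.42 in DISC1-Δ3 replicates. All DISC1-Δ3 values of Ugt8a were below all wildtype values. It differed on the log2 scale by -0.53 (SE 0.076, edgeR, adjusted p = 2.47e-05), a level that fell by 30.5%. Fa2h measured 13.98, 14.42 and 15.42 RPKM in wildtype replicates 1 to 3, against 12.97, 16.09 and 11.73 in DISC1-Δ3 replicates. DISC1-Δ3 replicate 2 was above every wildtype library and the other two below, with a coefficient of variation of 17% in this group against 5.1% in wildtype. The log2 fold change of Fa2h was -0.18 (95% interval -0.39 to 0.02, adjusted p = 0.151 from edgeR). Without DISC1-Δ3 replicate 2 it was -0.35 (adjusted p = 0.00489 from edgeR) and passed the threshold, and without DISC1-Δ3 replicate 3 it was -0.08.

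Itpr2, Tmem163 and Sirt2 showed smaller falls. Itpr2 encodes an IP3 receptor that releases calcium from the endoplasmic reticulum. It measured 10.10, 9.63 and 9.58 RPKM in wildtype, against 8.09, 8.07 and 8.14 in DISC1-Δ3 replicates. The DISC1-Δ3 values were nearly equal and all below wildtype, for a log2 fold change of -0.34 (SE 0.050, edgeR, adjusted p = 2.63e-05), a fall by 21.0%. Tmem163, which encodes a zinc transporter of newly formed oligodendrocytes, had RPKM values of 20.22, 21.06 and 22 against 15.98, 18.55 and 19.63. The groups did not overlap, but DISC1-Δ3 replicate 3 came within the wildtype spread of the lowest wildtype library. The log2 fold change of Tmem163 was -0.27 (SE 0.073, edgeR, adjusted p = 0.00637), a level that fell by 17.3%. It passed only narrowly with library totals as scaling (-0.19, adjusted p = 0.0496 from edgeR) and without wildtype replicate 3 (-0.24, adjusted p = 0.0434).

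Sirt2 measured 401.95, 409.63 and 411.99 RPKM in wildtype replicates 1 to 3, against 384.70, 398.94 and 375.89 in DISC1-Δ3 replicates. All 3 DISC1-Δ3 values were lower, by a margin that was small beside the level. The log2 fold change of Sirt2 was -0.16 (SE 0.042, edgeR, adjusted p = 0.00664), a level that fell by 10.4%. With library totals in place of TMM factors it was -0.08 (adjusted p = 0.115 from edgeR) and did not pass, and limma on RPKM also gave -0.08.

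Bcas1 and Fyn did not pass the test. Bcas1 measured 84.22, 83.55 and 86.98 RPKM in wildtype replicates 1 to 3, against 87.15, 86.48 and 86.66 in DISC1-Δ3 replicates, which overlap. It differed on the log2 scale by -0.04 (95% interval -0.13 to 0.04, adjusted p = 0.418 from edgeR), and 0.04 with library totals as scaling. Fyn had RPKM values of 72.94, 72.96 and 77.77 against 78.30, 81.60 and 79.94. All DISC1-Δ3 values of Fyn were higher in RPKM, as for 35.9% of tested genes, but after TMM scaling the log2 fold change was 0.02 (95% interval -0.08 to 0.11, adjusted p = 0.787 from edgeR). The direction for Fyn was also not stable, at -0.02 without DISC1-Δ3 replicate 2. The intervals of Bcas1 and Fyn did not reach those of Enpp6, Nfasc and Ugt8a.

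A comparison within each library needs no scaling between libraries, so reads of each gene were set against those of Bcas1. Bcas1 did not pass the test above, and the ratios use the same reads. They are therefore not a second test of the falls. For Enpp6 there were 16.6, 17.4 and 17.3 reads per 100 Bcas1 reads in wildtype and 9.08, 9.39 and 10.3 in DISC1-Δ3 libraries. For Nfasc there were 178, 172 and 163 against 116, 119 and 115, and for Ugt8a 14.9, 14.7 and 15.5 against 10.1, 10.5 and 11.7. For each of these genes the groups were far apart. Itpr2 (44.3 ± 2.2 against 36.0 ± 0.14, SD, n = 3 each), Tmem163 (16.5 ± 0.37 against 14.1 ± 1.2) and Sirt2 (281 ± 4.4 against 260 ± 9.4) were also lower per 100 Bcas1 reads without overlap. Fyn (104 ± 1.6 against 109 ± 3.2) and Fa2h (14.1 ± 0.46 against 12.8 ± 2.2) overlapped. The share of all tested genes without overlap on this ratio was not computed, and in RPKM it was 52%. The genes of this stage thus changed unequally relative to each other, which does not depend on the scaling of the libraries.

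**Figure D3:**
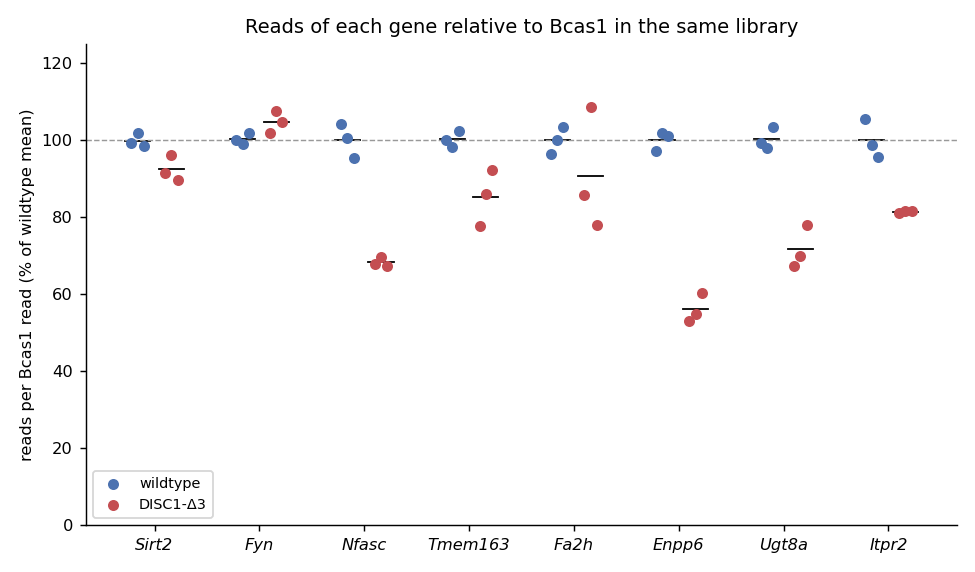
Reads of each gene per Bcas1 read in the same library, as a percent of the wildtype mean (y axis, from 0), for the 3 wildtype and 3 DISC1-Δ3 libraries, with a bar at each group mean. Enpp6 fell from 17.1 to 9.60 reads per 100 Bcas1 reads on average, the widest gap shown, and the Fyn and Fa2h points overlap.

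The stages before and after were read from marker lists in the same fit. Of the 9 OPC markers, 6 were higher and 1, Ptprz1, lower in DISC1-Δ3 libraries, with a median log2 fold change of 0.46. Pdgfra, the receptor used for panning, rose by 0.48 (SE 0.047), and Cspg4 by 0.46 (SE 0.062). Of 10 mature oligodendrocyte markers 6 were lower, with a median of -0.39 and summed RPKM of 2530 to 2560 in wildtype and 2320 to 2350 in DISC1-Δ3 libraries. The summed RPKM of the 9 premyelinating genes was 674 to 693 and 629 to 656. Each sum is mostly 1 gene. Sirt2 had a mean RPKM of 408 in wildtype and 386 in DISC1-Δ3 libraries. Mbp, in the mature oligodendrocyte sum, had 1807 and 1710. Libraries were also scaled to the OPC markers, a choice made after seeing the data. All 9 premyelinating genes were then lower at an adjusted p under 0.05 by edgeR, from -1.18 for Enpp6 to -0.28 for Fyn. So were 8150 of the 13792 tested genes, with 814 higher. That scaling rests on markers that themselves differed between genotypes, and it moved the median of all tested genes to -0.294, so its values are to be read against that median. The other 8 genes lay below it, Bcas1 at -0.35, and Fyn lay beside it.

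Markers of other cell types moved as well. All 10 microglia markers were lower (median -0.50), with summed RPKM at 0.714 of the wildtype mean. Of 8 astrocyte markers 5 were lower and 2 higher (summed RPKM ratio 0.959). Neuron markers were higher for 7 of 9 (ratio 1.22), endothelial markers for 3 of 6 (ratio 1.30) and pericyte markers for 5 of 5 (ratio 1.36). No marker on these lists was at 0 in any library. Some of the premyelinating genes are also expressed outside the lineage, such as Nfasc and Fyn in neurons and Itpr2 in astrocytes, and the part of these cell types in the results was not tested.

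**Figure D4:**
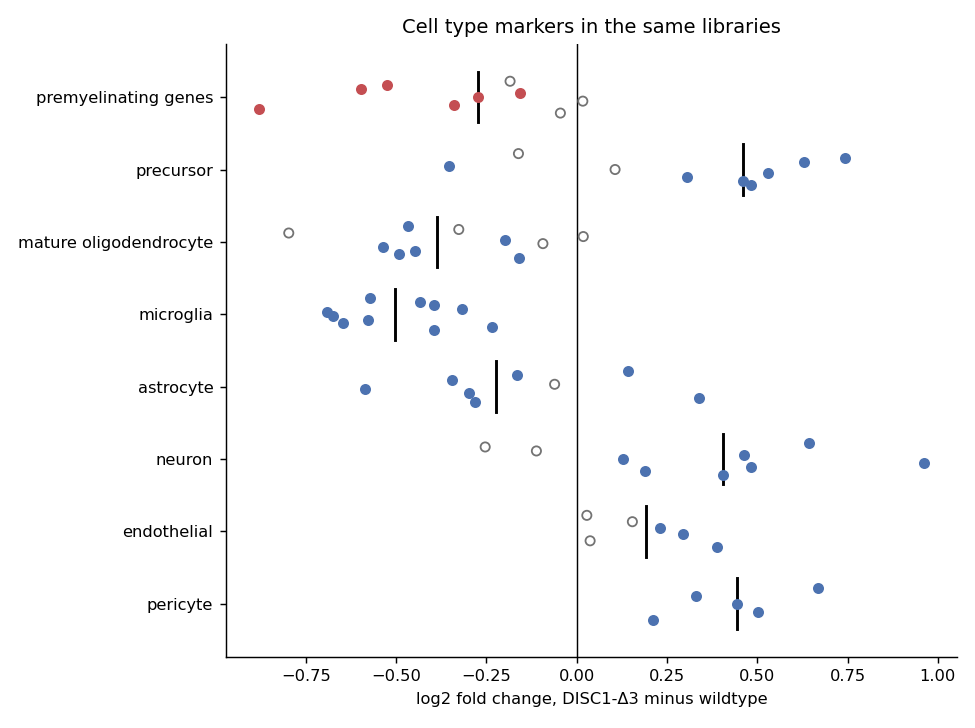
Log2 fold change (x axis, DISC1-Δ3 minus wildtype) of the tested genes of each cell type marker list and of the premyelinating genes, with filled points for an adjusted p under 0.05 and a bar at each median. The OPC markers have a median of 0.46, the premyelinating genes -0.27, the mature oligodendrocyte markers -0.39 and the microglia markers -0.50.

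Another 20 genes of committed and newly formed oligodendrocytes were followed beside the 9, of which 18 were tested. Of these 18, 4 were higher and 5 lower, with a median of -0.02, against 20.4% higher and 19.5% lower among all tested genes. The count of lower genes was 3 without wildtype replicate 1 or 2, 3 with library totals, 3 by DESeq2 and 1 by limma. Gpr17, a receptor of committed precursors that holds back their maturation, measured 63.30, 60.32 and 61.60 RPKM in wildtype replicates 1 to 3, against 107.49, 105.33 and 100.26 in DISC1-Δ3 replicates, a log2 fold change of 0.68 (SE 0.044, edgeR, adjusted p = 1.39e-09). Bmp4, a secreted ligand made by committed precursors, rose by 1.0 on the log2 scale (SE 0.11) from a mean RPKM of 3.87 to 8.66. Nkx2-2, a transcription factor of early differentiation, rose by 0.69 (SE 0.095), and Lims2 by 0.38. Myrf, the transcription factor that switches on myelin genes, had RPKM values of 18.61, 17.96 and 17.87 against 14.03, 14.22 and 13.37, a log2 fold change of -0.47 (SE 0.052, edgeR, adjusted p = 1.21e-06). Zfp488, a nuclear repressor that favours differentiation, was at -0.36, but DISC1-Δ3 replicate 3 (22.85) was above every wildtype library. Without that library Zfp488 was at -0.55. Its call was lost with DESeq2 (adjusted p = 0.0767), in both limma fits (0.0647 and 0.0669) and in a robust form of the edgeR fit (0.149). Tns3 fell by 0.20, and lost its call in limma (adjusted p = 0.0916). Chn2 was at -0.17 and Rap2a at -0.13. Chn2 lost its call with library totals, DESeq2 and limma, and without any wildtype library or DISC1-Δ3 replicate 1 (adjusted p up to 0.256). Rap2a lost its call with library totals and limma, and without wildtype replicate 1 or 2 (adjusted p up to 0.418). Gpr17 and Myrf thus differed in opposite directions, both without overlap between the groups.

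Partners of the proteins were examined by role. Of the 13 tested genes that join or anchor neurofascin, or are its relatives, 10 were higher and 0 lower by edgeR. Among all tested genes 20.4% were higher and 19.5% lower. DESeq2 gave 6 higher and 0 lower, and 0 lower at an unadjusted p under 0.05. The median of these 13 genes was 0.28, while Nfasc itself fell. Without wildtype replicate 2 the count was 6 higher, and with libraries scaled to OPC markers it was 2 higher and 3 lower. L1cam, an axonal adhesion molecule of the same family, rose by 1.05 (SE 0.087). Cntnap1, the axonal partner of glial neurofascin at the paranode, rose by 1.01 (SE 0.18) from a mean RPKM of 0.783 to 1.66. Cntn1, which binds neurofascin and is also a receptor upstream of Fyn, rose by 0.45 (SE 0.067). Several of these are neuronal genes, and the neuron markers above rose with them; their part was not tested.

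Of 12 genes around Fyn, 4 were higher and 4 lower, against 20.4% and 19.5% of all tested genes. Without wildtype replicate 2 the count was 2 higher. Pag1, which encodes the membrane adaptor that brings Csk to Src family kinases, fell from 12.53, 11.88 and 11.14 RPKM to 6.47, 6.77 and 7.12, a log2 fold change of -0.88 (SE 0.059, edgeR, adjusted p = 1.69e-09). Csk, the kinase that inhibits Fyn, fell by 0.33 (SE 0.045), the laminin receptor subunit gene Itga6 by 0.43 (SE 0.048). Itgb1 was at -0.16, and at -0.07 without a call with library totals (adjusted p = 0.165 from edgeR) and in limma. Cntn1 and Mapt, the gene of the microtubule protein tau, rose, Mapt by 0.33 (SE 0.053). Arhgap35 was at 0.15, and lost its call without wildtype replicate 2 or 3 or DISC1-Δ3 replicate 1 or 2 (adjusted p of 0.0509, 0.133, 0.072 and 0.118 from edgeR). Ptk2, a focal adhesion kinase gene, rose by 0.28, and without wildtype replicate 2 was at 0.22 (adjusted p = 0.0524 from edgeR). Among the other Src family kinases, Fgr and Lyn, which myeloid cells express, were lower, with log2 fold changes of -1.17 and -0.52. Src rose by 0.18, but lost its call without wildtype replicate 2 (0.15, adjusted p = 0.0667) and without DISC1-Δ3 replicate 1 (0.13, adjusted p = 0.0917). Microglia markers fell beside Fgr, Lyn, Csk and Pag1, and their part was not tested.

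Beside Itpr2, the other IP3 receptor genes moved in opposite directions. Itpr1 rose from a mean RPKM of 1.36 to 2.35 (log2 fold change 0.72, SE 0.11), and Itpr3 fell from 3.36 to 2.19 (-0.69, SE 0.089). Of 10 IP3 and calcium store genes 2 were higher and 4 lower, against 20.4% and 19.5% of all tested genes. The count was 1 higher without wildtype replicate 2 or DISC1-Δ3 replicate 3, and 2 lower without wildtype replicate 3. The balance turned round with library totals and with limma on log2(RPKM + 1), which each gave 4 higher and 2 lower. Plcg2, a phospholipase gene that microglia also express, fell by 0.57. Orai1 was at -0.19, and lost its call without wildtype replicate 2 (-0.16, adjusted p = 0.0809 from edgeR) or 3 (-0.18, adjusted p = 0.0554), with library totals and in limma. Plcb4 rose by 0.47, but was at 0.28 without DISC1-Δ3 replicate 3 (adjusted p = 0.0716 from edgeR) and 0.43 without wildtype replicate 2 (adjusted p = 0.0597). Stim1 was at -0.19, and at -0.14 (adjusted p = 0.0989) and -0.19 (adjusted p = 0.0569) without wildtype replicates 1 and 3.

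Around Ugt8a and Fa2h, 4 of 16 tested genes of sphingolipid and galactolipid metabolism were lower and 0 higher by edgeR, with 1 higher at an unadjusted p under 0.05, against 19.5% lower and 20.4% higher among all tested genes. DESeq2 gave 4 lower and 0 higher, whereas library totals and limma each gave 1 lower and 2 higher. Without wildtype replicate 2 the count was 1 lower, and without DISC1-Δ3 replicate 3 1 was higher. Psap, which encodes the precursor of the saposins that aid lipid breakdown, fell by 0.37 (SE 0.046). Sptlc2, a subunit of the enzyme that starts sphingolipid synthesis, was at -0.21, and lost its call without wildtype replicate 2 (-0.19, adjusted p = 0.0548 from edgeR), with library totals and in limma. Arsa and Galc, the lysosomal enzymes that break down sulfatide and galactosylceramide, were at -0.26 and -0.22. Arsa lost its call without wildtype replicate 2 (-0.23, adjusted p = 0.0560 from edgeR). Galc lost it without wildtype replicate 2, wildtype replicate 3 or DISC1-Δ3 replicate 2 (adjusted p of 0.0768, 0.131 and 0.0760). All 10 microglia markers fell beside Psap, Arsa and Galc (median -0.50, summed RPKM ratio 0.714), and their part was not tested. Gal3st1, which turns galactosylceramide into sulfatide, was at 0.19 (adjusted p = 0.0523).

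Of 14 tested choline and Enpp genes around Enpp6, 2 were higher and 3 lower, with 0 higher without wildtype replicate 2, wildtype replicate 3 or DISC1-Δ3 replicate 3, and 5 lower without the last. These shares are near those of all tested genes (20.4% higher, 19.5% lower), and library totals and both limma fits gave 1 lower. The choline transporter gene Slc44a1 fell by 0.28 (SE 0.048, edgeR, adjusted p = 0.000122), from 38.13, 35.63 and 35.68 RPKM to 31.98, 32.37 and 33.24. Cept1 and Slc44a2 were at -0.25 and -0.18 and Chka and Enpp5 at 0.21 and 0.19, and each of these lost its call when a library was left out. The adjusted p was 0.0547 for Cept1 without wildtype replicate 2, 0.115 for Slc44a2 without wildtype replicate 1, and 0.114 for Chka without DISC1-Δ3 replicate 3. Chka also lost it without wildtype replicate 2 (adjusted p = 0.0831) or 3 (0.0764). Enpp5 lost it without any library but wildtype replicate 1 (adjusted p up to 0.143). Of the other Enpp genes, Enpp1 was at -0.27 (adjusted p = 0.0967 from edgeR), Enpp4 at -0.05 and Enpp2, the autotaxin gene, at 0.03.

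Of 10 Slc30 family and metallothionein genes set beside Tmem163, 2 were higher and 5 lower, against 20.4% and 19.5% of all tested genes. Mt3, the metallothionein gene of brain, rose by 0.38 (SE 0.048), while Mt1 fell by 0.36 (SE 0.044) and Mt2 by 0.24. The Slc30 family genes Slc30a10, Slc30a7 and Slc30a4 were at -0.38, -0.39 and -0.25. The RPKM values of Slc30a7 overlapped between genotypes, and its call was lost in limma (adjusted p = 0.0584). Slc30a4 lost its call without wildtype replicate 2 or 3 or DISC1-Δ3 replicate 2, with library totals, and in DESeq2 and limma (adjusted p up to 0.201). Slc30a9 rose by 0.21. Of the 6 other sirtuin genes, 0 passed the threshold in either direction by edgeR, DESeq2 or limma, with 0 at an unadjusted p under 0.05 by edgeR and 1 higher by limma, and their log2 fold changes ran from -0.11 to 0.09. Lims2, Chn2, Rap2a, Ptprz1, Itgb1, Arhgap35, Orai1, Sptlc2, Gal3st1, Slc30a4, Mt2, Enpp1, Enpp2 and Enpp4 were named after their values were seen.

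**Figure D5:**
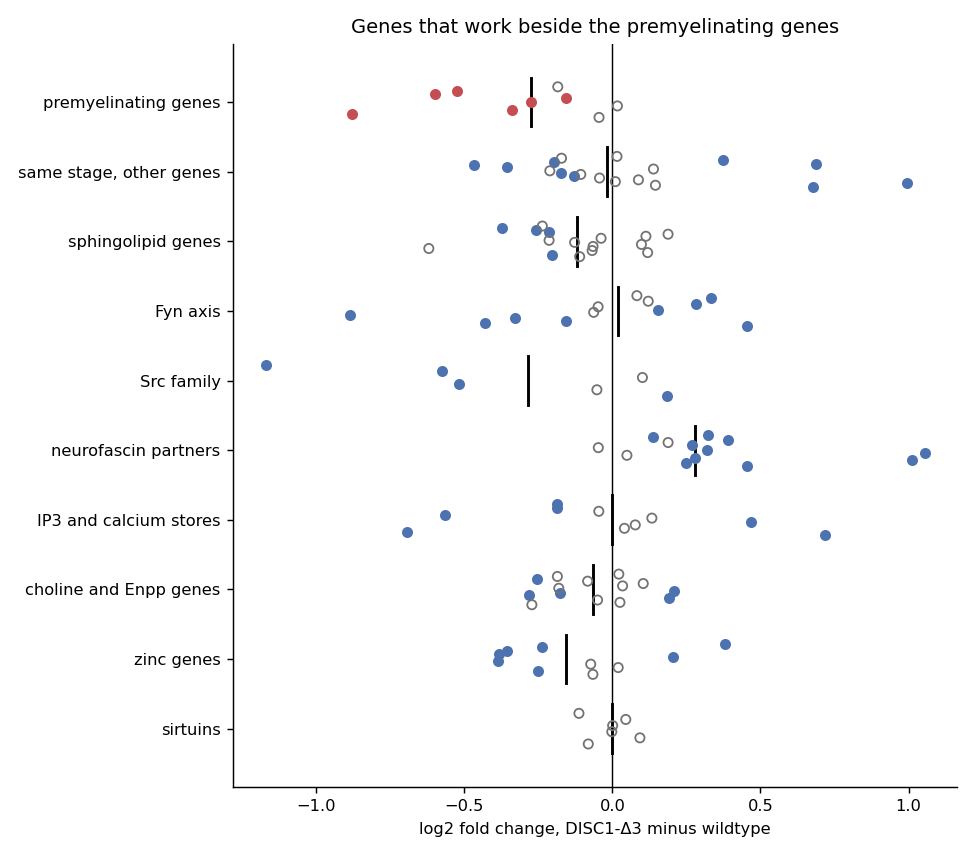
Log2 fold change (x axis, DISC1-Δ3 minus wildtype) of the tested genes of each list, with filled points for an adjusted p under 0.05 and a bar at each median. The premyelinating genes have a median of -0.27 and the neurofascin partners 0.28, while the genes of the same stage spread from -0.47 to 1.0 around a median of -0.02.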

How the data were processed

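RNA of the panned cells, labelled as OPCs, was read as 50-base single-end reads in 3 wildtype and 3 DISC1-Δ3 libraries. The submitters' processing notes name Bowtie2 2.2.5 and mm10. The counting tool and annotation are not given in the sources used here. The authors deposited an expected count per gene and library, in which 90.2% of values above 0 are whole numbers, and an RPKM to 2 decimals, which relates to the count through transcript length and library total. Another 4 columns of group means were not used.

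Expected counts were rounded and tested with edgeR 4.0.16 (R 4.3.3, quasi-likelihood, TMM scaling on totals of all genes, a term for genotype), two-sided, with Benjamini-Hochberg adjustment over 13792 genes with an RPKM of at least 0.5 in 3 libraries and a threshold of 0.05. Standard errors are the log2 fold change over the square root of F, and intervals are at 95%. DESeq2 1.42.0 and limma 3.58.1 on log2(RPKM + 1) were alternatives, as were other scalings and filters, a replicate block and each library left out. The fit was tested on simulated counts for this comparison over 13792 genes, where edgeR recovered 179 of 200 changed genes with 12 false calls. The simulated log2 changes were 0.5 (81 recovered) and 1 (98 recovered) in size, with the same dispersion for all genes. Smaller changes, such as those of Itpr2, Tmem163 and Sirt2, were not simulated. In the libraries themselves 39.9% of the 13792 genes passed the threshold. How the fit and the TMM scaling perform with changes that widespread was not tested. The genes and lists were chosen with earlier results of these data known. Genes were named where they are among the 9, where they are among the 3 largest called changes in each direction of a companion list, or where they are Gpr17, Myrf, Disc1, Cspg4 or Pdgfra. A further gene so chosen was left out of the text. Of 110 companion genes 109 were in the table and 104 were tested, with Tmem2 matched as Cemip2 by synonym. Reads carried no molecular identifiers, so copies of 1 molecule may be counted more than once.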

Additional observations from a re-analysis of the deposited data

How the results depend on the processing

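Over 15 alternative settings, the number of premyelinating genes lower at an adjusted p under 0.05 stayed between 5 and 7, and the number higher at 0. Their median log2 fold change was -0.19 with library totals as scaling, -0.22 and -0.23 with limma at pseudocounts of 1 and 0.1, and -0.35 to -0.24 with each library left out. Bcas1 changed sign with library totals (0.04) and in both limma fits (0.03), and Fyn without DISC1-Δ3 replicate 2 (-0.02), none past the threshold. Scaling to OPC markers, added after seeing the data, gave a median of -0.58 for these genes and 8964 calls in all (8150 lower). It also turned Fyn (-0.28), Ptk2 (-0.02), Src (-0.12), Chka (-0.09), Enpp5 (-0.11) and Slc30a9 (-0.09) downward, of which Fyn passed the threshold. Calls for all tested genes ran from 4342 to 6232 with each library left out.

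Of 104 companion genes tested, 24 were higher and 28 lower, against 20.4% and 19.5% of all tested genes. The count was 17 lower with library totals and 14 lower in each limma fit. With each library left out 14 (without wildtype replicate 2) to 26 were higher and 20 to 32 lower, and with OPC marker scaling 6 were higher and 69 lower. Of all tested genes, 1774 and 1763 were lower in the limma fits, against 2691, and 69.2% of calls were then higher, as 69.1% were with library totals. Over 48 named genes, 665 of 720 pairs of gene and alternative setting kept direction and side of the threshold, 50 lost it, 1 newly passed it (Fa2h) and 4 changed sign. With the replicate number as a block 5429 genes passed against 5498 without it, and 5288 in both. Deviations from the group means had correlations of 0.069, 0.023 and -0.056 between same-numbered libraries. With 3 libraries per group, these values cannot decide whether such libraries shared a preparation. The block moved no call of the premyelinating genes. The depth limits the rarer genes most: the lowest count was 325 reads among the premyelinating genes (Enpp6) and 32 among the named companions (Fgr).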
